A study of Mus musculus with 6 samples.

Results

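The RNA of 8 genes that detect nucleic acid in the cytosol, or relay its detection, was measured in colon tumours of Trim21 knockout and wild-type mice. The genes are the sensors Cgas, Aim2 and Ddx41, the adaptors Sting1 and Mavs, the kinases Tbk1 and Ikbke, and the nuclease Trex1. They were chosen by name as genes of these routes, with earlier results of these data known, and they are 8 of 26214 features in the deposited tables. All 8 passed the filter on low counts, which kept 16281 features. Tumours came from Trim21 -/- mice (3 samples) and from Trim21 +/+ mice (3 samples), and mice of both genotypes had received AOM (azoxymethane, a carcinogen) and DSS (dextran sulfate sodium, which injures the colon lining). The labels call the samples of each genotype biological replicates, but nothing in them ties each sample to a separate mouse. A p-value therefore covers only how far these samples spread. No age, strain or deleted exons are given.

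The cytosol of a healthy cell holds little DNA, and DNA that appears there is read as a sign of infection or damage. The enzyme cGAS binds such DNA and makes the messenger cyclic GMP-AMP, which activates the membrane adaptor STING. Cytosolic RNA is read by the helicases RIG-I and MDA5, which act through MAVS on mitochondria. Both routes meet at the kinases TBK1 and IKK-epsilon, which phosphorylate interferon regulatory factors and so switch on type I interferon and its target genes. AIM2 instead assembles an inflammasome, a platform that activates caspase-1, and TREX1 degrades cytosolic DNA before it is sensed. TRIM21 is a ubiquitin ligase and cytosolic antibody receptor. Its protein is known to act on interferon regulatory factors and, in mouse dendritic cells, on the DDX41 protein, and RNA levels do not read such modification.

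Knockout libraries held 17937821 to 19987295 counts and wild-type libraries 27085599 to 29742757, so depth differed between the groups. Levels are in CPM, the usual scaling of read counts to library size, here with TMM factors, and each fold change is the knockout over the wild type. Trim21 itself had 12.1, 18.9 and 12.8 CPM in the knockout libraries, against 29.8, 20.3 and 19.5 CPM in the wild-type libraries. The knockout values were all lower, but the RNA was not absent, and gene-level counts carry no information on the deleted exons. Its log2 fold change was −0.67 (standard error 0.24, edgeR adjusted p = 0.418). With edgeR's quasi-likelihood test, 0% of the 16281 genes passed an adjusted p of 0.05 in either direction, and 1750 genes (10.7%) had an unadjusted p under 0.05. DESeq2 called 2.21% of the genes it tested and limma-voom 0%. Target genes of interferon stood high in knockout replicate 2 and wild-type replicate 1. These were the 2 highest libraries for 14 of 16 tested interferon target genes. Values with either or both left out are given for Sting1, Mavs, Tbk1, Ikbke, Trex1 and the kinase ratio. They are also given for the DNA sensor, RNA sensor and interferon target lists, but not for every gene named.

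None of the 8 genes passed edgeR's test, and none passed with DESeq2 or limma-voom. Cgas and Sting1 had lower values in every knockout library than in any wild-type library, and Ikbke had higher values in every knockout library. In the other 5 genes the groups overlapped. Groups that do not overlap were found for 3 of the 8 genes (37.5%), beside 17.9% of all genes tested. By direction this was 1 of 8 higher in the knockout, beside 9.43% of all genes, and 2 of 8 lower, beside 8.47%. Cgas and Sting1 also had an unadjusted p under 0.05, as did 4.12% of all genes in the lower direction and 6.63% in the higher. For Cgas this did not hold with limma-voom, nor in edgeR on unscaled library totals, with no filter on low counts or with any 1 library left out. For Sting1 it did not hold in edgeR when knockout replicate 1, knockout replicate 3 or wild-type replicate 1 was left out. The median log2 fold change of the 8 genes was −0.08, and that of all genes tested was −0.01.

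**Figure D1:**
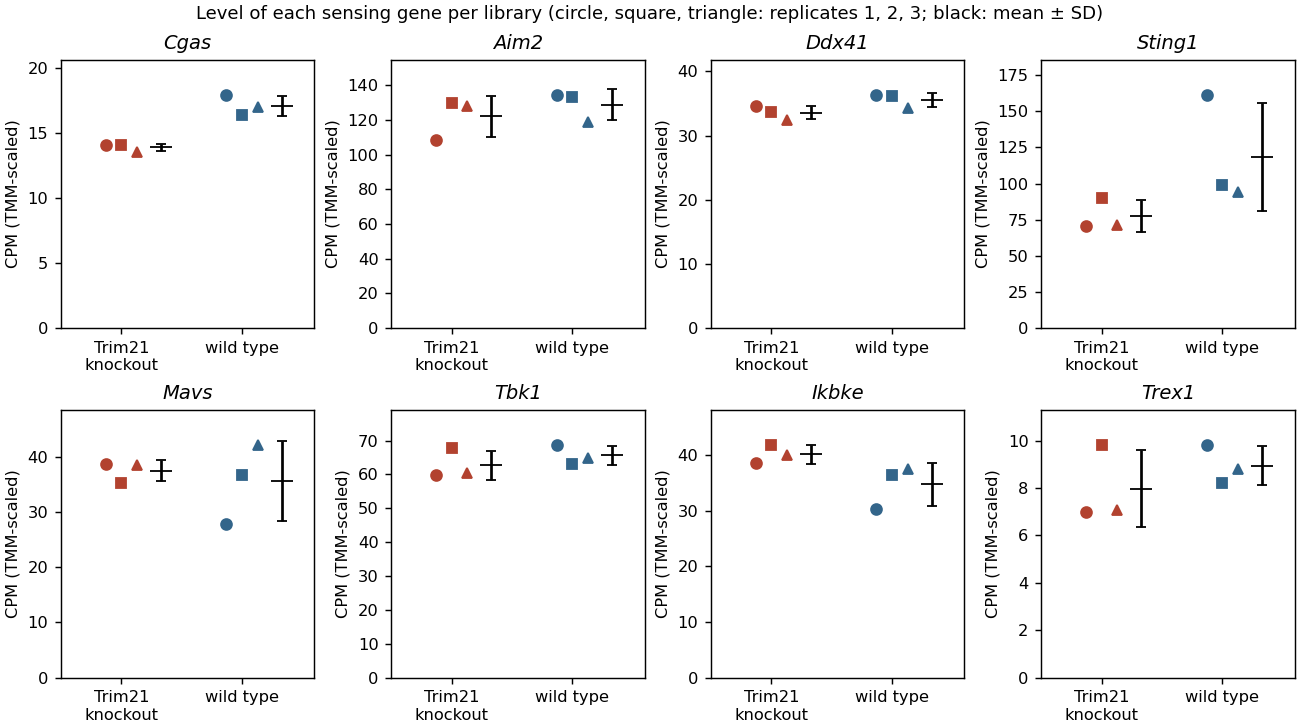
CPM of the 8 genes in each library, with knockout libraries on the left and wild-type libraries on the right of each panel; circles, squares and triangles mark replicates 1, 2 and 3, and black bars give mean ± SD (n = 3). The groups are separate for Cgas, Sting1 and Ikbke, and wild-type replicate 1 stands far above the others for Sting1, at 161 CPM.

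Cgas, which encodes the DNA-sensing cyclic GMP-AMP synthase, occupies chr9:78430526-78443237 of mm10 (minus strand). It had 14.0, 14.1 and 13.5 CPM in the knockout libraries, against 17.9, 16.4 and 17.0 CPM in the wild-type libraries. The values of each group lay close together, and no knockout library reached the lowest wild-type one. The means were 13.9 ± 0.288 CPM in knockout tumours and 17.1 ± 0.769 CPM in wild-type tumours (SD, n = 3 each), from 256 to 283 reads per knockout library and 458 to 534 reads per wild-type library. The log2 fold change was −0.30, with a 95% interval of −0.60 to −0.0049 and an edgeR adjusted p of 0.461. It stayed between −0.33 and −0.27 when each library was left out in turn. In bulk tumours, fewer cells that express a gene and less RNA per cell cannot be told apart.

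The promoter of Cgas is shown beside those of the kinase genes Tbk1 and Ikbke, because the groups did not overlap for Cgas and Ikbke, and Tbk1 is the close relative of Ikbke. Sting1 has no entry in the promoter table. The lines give the 250 bases before the RefSeq start for Cgas and Tbk1 and the 30 bases before it for Ikbke, whose GENCODE start lies further upstream, on the coding strand of GRCm38.p6. Capitals mark matches, on either strand, to a GC box (GGGCGG), an AP-1 motif (TGANTCA), a cyclic AMP response element (TGACGTCA), an interferon-stimulated response element (GAAA, any 2 bases, GAAA), a gamma-activated sequence (TTCNNNGAA) or an NF-kB motif.
Cgas promoter, chr9:78443238-78443487, minus strand: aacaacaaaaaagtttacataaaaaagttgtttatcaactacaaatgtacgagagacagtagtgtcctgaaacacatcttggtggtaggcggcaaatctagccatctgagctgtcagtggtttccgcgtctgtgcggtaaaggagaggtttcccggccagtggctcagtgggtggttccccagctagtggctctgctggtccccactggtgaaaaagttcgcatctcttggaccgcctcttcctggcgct
Tbk1 promoter, chr10:121586795-121587044, minus strand: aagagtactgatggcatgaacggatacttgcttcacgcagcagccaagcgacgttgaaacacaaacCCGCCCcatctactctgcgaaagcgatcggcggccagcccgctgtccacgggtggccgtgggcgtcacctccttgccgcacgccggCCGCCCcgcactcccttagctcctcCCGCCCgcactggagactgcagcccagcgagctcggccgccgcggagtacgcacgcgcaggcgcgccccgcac
Ikbke start region, chr1:131279564-131279593, minus strand: gagaaagagagagagagagagaagTGAATC
The Cgas window held no match to any of these motifs. Tbk1 held 3 GC boxes, a motif found in 35.7% of the 32851 promoters in the table. Ikbke held 1 AP-1 motif, which runs 1 base past the RefSeq start, so its last base is not shown, and 7.81% of promoters hold that motif. Among the 7 of 8 genes with a RefSeq promoter, all but Sting1, none held the interferon-stimulated element in the 250 bases before the start or the 50 after it, while 3.44% of all promoters did. Trim21, a known interferon-induced gene, carried 2 overlapping matches to it, at bases 14 to 29 from the start, and these are shown as an example of the element.
Trim21 element, chr7:102565454-102565469, minus strand: GAAACTGAAAGTGAAA
A match describes letters only, and no binding was measured.

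Aim2, the cytosolic DNA receptor of an inflammasome, occupies chr1:173350879-173466040 (plus strand). It had 109, 129.5 and 128 CPM in the knockout libraries, against 134, 133 and 119 CPM in the wild-type libraries. The groups overlapped, and knockout replicate 1 was the lowest of the 6. Aim2 averaged 122 ± 11.8 CPM in knockout tumours and 128.8 ± 8.82 CPM in wild-type tumours (SD, n = 3 each). This gave a log2 fold change of −0.08 (95% interval −0.32 to 0.16, edgeR adjusted p = 0.796), and it was 0.0076 without knockout replicate 1. As a ratio, the interval runs from 0.801-fold to 1.12-fold.

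Ddx41 encodes a DEAD-box helicase that has been described as a DNA sensor acting through STING, and that also works in splicing. The gene occupies chr13:55530410-55536658 (minus strand). It had 34.6, 33.7 and 32.5 CPM in the knockout libraries, against 36.3, 36.2 and 34.4 CPM in the wild-type libraries. The highest knockout value passed the lowest wild-type value by a small margin. Of the 8 genes, Ddx41 varied least, with its highest library 1.12-fold above its lowest. edgeR gave a log2 fold change of −0.09 (95% interval −0.31 to 0.14, edgeR adjusted p = 0.762). An antisense gene shares 17.4% of its exon bases in GENCODE, and reads of both strands cannot be told apart where counting ignored strand.

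Sting1, which encodes the adaptor that receives cyclic GMP-AMP, is annotated at chr18:35733679-35740554 (minus strand). It had the widest range of the 8 genes, 2.29-fold from the lowest to the highest library. The knockout libraries had 70.6, 90.2 and 71.6 CPM, against 161, 99.3 and 93.9 CPM in the wild-type libraries. Wild-type replicate 1 stood apart, while knockout replicate 2 came close to the lowest wild-type library. The means were 77.5 ± 11.0 CPM in knockout tumours and 118 ± 37.4 CPM in wild-type tumours (SD, n = 3 each). The log2 fold change was −0.61 (95% interval −1.13 to −0.09), a level 0.656 times that of the wild type, and the edgeR adjusted p was 0.418. Without wild-type replicate 1 the log2 fold change was −0.32 (adjusted p = 0.598). Without that library and knockout replicate 2 it was −0.45 (adjusted p = 0.651), a setting chosen after seeing the data.

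Mavs, the mitochondrial adaptor of the RNA sensors, occupies chr2:131234063-131248025 (plus strand). It had 38.7, 35.3 and 38.5 CPM in the knockout libraries, against 27.9, 36.7 and 42.2 CPM in the wild-type libraries. The wild-type libraries spanned the whole range, with replicate 1 lowest and replicate 3 highest of the 6. The means were 37.5 ± 1.94 CPM in knockout tumours and 35.6 ± 7.22 CPM in wild-type tumours (SD, n = 3 each). This gave a log2 fold change of 0.07 (95% interval −0.30 to 0.45, edgeR adjusted p = 0.881). It was −0.07 without wild-type replicate 1, so its sign rested on that library.

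Tbk1, the kinase that phosphorylates IRF3 downstream of STING and MAVS, occupies chr10:121546455-121586787 (minus strand). It had 59.9, 67.8 and 60.4 CPM in the knockout libraries, against 68.8, 63.2 and 64.8 CPM in the wild-type libraries. The highest library of each group was the one with high interferon targets. edgeR gave a log2 fold change of −0.07 (95% interval −0.29 to 0.16, edgeR adjusted p = 0.817). Leaving out single libraries gave values from −0.13 (knockout replicate 2 left out) to −0.03 (knockout replicate 1 left out).

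Ikbke encodes IKK-epsilon, the relative of TBK1 that is itself inducible by inflammatory signals. The gene occupies chr1:131254343-131279606 (minus strand). It had 38.5, 41.8 and 40.0 CPM in the knockout libraries, against 30.2, 36.5 and 37.4 CPM in the wild-type libraries. The knockout libraries were all higher, and the lowest of them exceeded the highest wild-type library by a small margin. The means were 40.1 ± 1.68 CPM in knockout tumours and 34.7 ± 3.92 CPM in wild-type tumours (SD, n = 3 each). The log2 fold change was 0.21 (95% interval −0.07 to 0.49, edgeR adjusted p = 0.543). It was 0.12 without wild-type replicate 1, and 0.08 when knockout replicate 2 was left out with it.

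The balance of the kinase pair was compared within each library, which needs no scaling between libraries. Reads of Ikbke per read of Tbk1 were 0.643, 0.618 and 0.663 in the knockout libraries, against 0.439, 0.577 and 0.577 in the wild-type libraries. Every knockout library had the higher ratio. The mean log2 ratio was −0.64 ± 0.05 in the knockout and −0.93 ± 0.23 in the wild type (SD, n = 3 each), a difference of 0.28. The exact two-sided permutation test gave p = 0.1, the smallest p that 3 against 3 libraries allow. Without wild-type replicate 1 the difference was 0.15.

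Trex1, the exonuclease that clears cytosolic DNA, occupies chr9:109057933-109059734 (minus strand). It had 6.99, 9.83 and 7.08 CPM in the knockout libraries, against 9.83, 8.23 and 8.79 CPM in the wild-type libraries. Knockout replicate 2 and wild-type replicate 1 were again the highest libraries of their groups. This gave a log2 fold change of −0.17 (95% interval −0.64 to 0.31, edgeR adjusted p = 0.776). Single libraries moved it to between −0.35 (knockout replicate 2 left out) and −0.07 (knockout replicate 1 left out). All exon bases of Trex1 also belong to the same-strand gene Atrip in GENCODE, so its reads cannot be assigned to Trex1 with certainty. Atrip, a partner of the DNA damage kinase ATR, averaged 9.34 ± 0.986 CPM in knockout tumours and 9.62 ± 1.08 CPM in wild-type tumours (SD, n = 3 each).

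**Figure D2:**
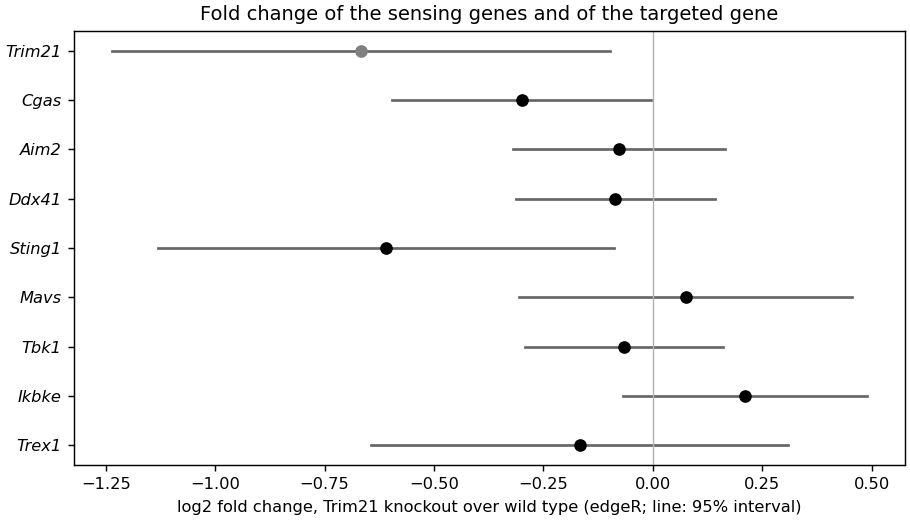
Log2 fold change of the knockout over the wild type from edgeR with its 95% interval, for Trim21 and the 8 genes. The intervals of Trim21, Cgas and Sting1 lie below 0 and those of the other 6 genes cross 0; the intervals are for single genes, and no gene passed after adjustment over all genes.

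Levels were also set per kilobase of exon in coding transcripts of GENCODE, which allows genes to be ranked against each other. Aim2 had 43.0 ± 4.14 CPM per kilobase in the knockout and 45.4 ± 3.11 in the wild type (SD, n = 3 each, here and for the other genes). Sting1 had 33.7 ± 4.80 in the knockout and 51.4 ± 16.3 in the wild type. Over the 6 libraries their ranges overlapped, at 38.2 to 47.3 for Aim2 and 30.7 to 70.1 for Sting1. The ranges alone therefore did not order these genes. The highest Sting1 value was that of wild-type replicate 1, and their order within each library was not compared. Tbk1 came next, with 20.7 ± 1.46 CPM per kilobase in the knockout and 21.7 ± 0.957 in the wild type. Ddx41 had 15.2 ± 0.476 in the knockout and 16.2 ± 0.492 in the wild type, below every library of Tbk1. Mavs had 12.1 ± 0.627 in the knockout and 11.5 ± 2.33 in the wild type. Ikbke overlapped with it, at 12.1 ± 0.508 in the knockout and 10.5 ± 1.19 in the wild type. Trex1 followed with 6.95 ± 1.41 in the knockout and 7.80 ± 0.709 in the wild type. The lowest was Cgas, at 3.40 ± 0.0705 CPM per kilobase in the knockout and 4.19 ± 0.189 in the wild type, so the DNA sensor had less RNA per length than its adaptor Sting1 in every library. The annotation that the authors counted on is unknown here, so these lengths may differ from theirs.

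Wild-type replicate 1 gave the highest or the lowest value for 7 of the 8 genes. It was highest for Cgas, Sting1, Tbk1, Aim2 and Ddx41 and lowest for Ikbke and Mavs. The summed level of the interferon target list was 209.8, 1171 and 414 CPM in knockout libraries 1 to 3, against 1228, 433 and 500.4 CPM in wild-type libraries 1 to 3. Wild-type replicate 1 was also the only library with more than 2 reads of the interferon gene Ifnb1, at 10, and it held 7 reads of Ifnl2. The knockout libraries held 0 reads of Ifnb1, which allows up to 0.149 to 0.165 CPM per library, for counting error only. The part of these differences between libraries in the results above was not tested.

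**Figure D3:**
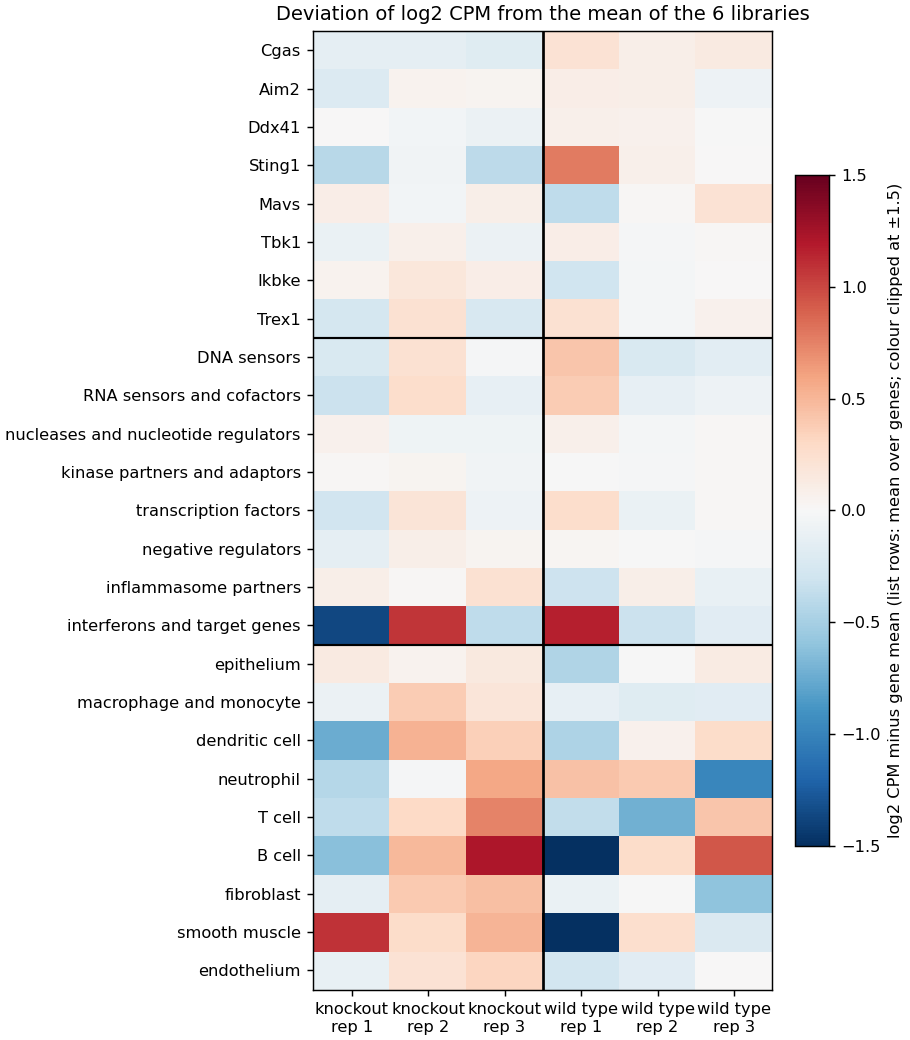
Deviation of log2 CPM from the mean of the 6 libraries, by library in columns, for the 8 genes (top block), the pathway lists (middle block) and cell type marker lists (bottom block). Knockout replicate 2 and wild-type replicate 1 share high interferon targets, and wild-type replicate 1 is low for smooth muscle and B cell markers.

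Genes with the most similar profile were sought among 10535 genes by Pearson's r of log2 CPM over the 6 libraries, as a description, since the highest of so many values is high by choice. Tbk1 was closest to Cmpk2, an interferon-induced nucleotide kinase gene (r = 0.997), and to Trex1 (r = 0.993). The profile of Trex1 was next closest to Ifit1bl1 (r = 0.983), a gene of the interferon-induced Ifit family. Cgas was closest to Rbm28 (r = 0.997) and Trmt10a (r = 0.991), and Sting1 to the clock gene Arntl2 (r = 0.994) and to Fip1l1 (r = 0.993). For Ikbke the closest were Ubl3 (r = 0.994) and Gask1b (r = 0.991), and for Mavs they were Mipep (r = 0.997) and Bsdc1 (r = 0.993). Aim2 was closest to Lca5 (r = 0.982) and Zfp780b (r = 0.98), and Ddx41 to Mex3a (r = 0.988) and Tedc2 (r = 0.986).

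Of 22 other genes of DNA sensing, 19 were tested, and 0 were higher and 0 lower by edgeR's test. Their median log2 fold change was −0.07, and 0.04 without wild-type replicate 1. It stayed negative with any other single library left out, down to −0.15 without wild-type replicate 2. With wild-type replicate 1 and knockout replicate 2 both left out, the median was 0.04. The helicase gene Dhx9 had 333, 282 and 289.8 CPM in the knockout libraries, against 373, 338 and 352 CPM in the wild-type libraries, without overlap (log2 fold change −0.23, edgeR adjusted p = 0.455). Hnrnpa2b1, a nuclear RNA-binding protein also described as a viral DNA sensor, had −0.14, again without overlap, while Polr3b (−0.14) and Mre11a (−0.12) overlapped. These genes were named for the smallest p in the list. Across the list, groups did not overlap for 10.5% of tested genes, beside 17.9% of all genes. Ifi204, of the Ifi200 family of Aim2 relatives, had 9.52, 27.7 and 13.9 CPM in the knockout libraries, against 28.4, 8.50 and 8.16 CPM in the wild-type libraries. Zbp1, a sensor of nucleic acid in the Z form, had 20.7, 83.8 and 39.0 CPM in the knockout libraries, against 87.6, 33.1 and 40.1 CPM in the wild-type libraries. Both genes were highest in knockout replicate 2 and wild-type replicate 1.

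RNA sensors and their cofactors had a median log2 fold change of −0.12 over 20 genes, with 0 higher and 0 lower by edgeR's test. The median was 0.05 without wild-type replicate 1. It stayed negative with any other single library left out, down to −0.19 without knockout replicate 2. With both of these libraries left out it was −0.07. The sensor genes Ddx58 (RIG-I) and Ifih1 (MDA5) had log2 fold changes of −0.24 and 0.03 and overlapped, each with its highest values in knockout replicate 2 and wild-type replicate 1. The helicase gene Dhx15 did not overlap between the groups, at −0.16, and Ddx3x (−0.15) and Rnf135 (−0.23) overlapped.

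The nuclease list, with 16 of 17 genes tested, had 0 higher and 0 lower genes and a median log2 fold change of −0.05. Dnase1, which digests DNA outside cells, had few reads and a log2 fold change of −0.53 without overlap, averaging 2.22 ± 0.503 CPM in knockout tumours and 3.20 ± 0.422 CPM in wild-type tumours (SD, n = 3 each). Samhd1, which depletes nucleotides, had 0.29, Banf1 −0.20 and Rnaseh2a −0.18. The list of kinase partners and adaptors had 0 higher and 0 lower among 17 genes, and a median of −0.0045. The lowest p in it belonged to Tom1 (0.51) and Tradd (0.32), which did not overlap, then Ikbkb (−0.24) and Traf2 (−0.28), which did. Tom1 is known as an endosomal sorting adaptor, and Tradd as an adaptor of the TNF receptor.

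Transcription factors had a median of −0.11 over 12 genes, with 11 below 0 and 0 past the test. Leaving out single libraries put it between −0.17 (wild-type replicate 2) and −0.06 (wild-type replicate 1). Stat6 (−0.16) and Rela (−0.14) had lower values in every knockout library, while Irf9 (−0.38) and Relb (0.14) overlapped. Irf3, the direct substrate of TBK1, had −0.11 (adjusted p = 0.777). Negative regulators had a median of −0.03 over 19 of 20 genes, with 0 past the test. Leaving out single libraries put that median between −0.06 (knockout replicate 3) and 0.0055 (knockout replicate 1). Ulk1 (−0.24), an autophagy kinase that also phosphorylates STING, did not overlap. Next in that list by p were Nlrx1 (0.21), Smurf1 (−0.11) and Pcbp2 (−0.09). The interferon target list had a median of −0.25 over 16 of 20 genes, with 0 past the test. Its log2 fold changes ran from −0.87 for Mx2 to 0.63 for Ccl5, with Rsad2 at −0.67 and Cmpk2 at −0.42, and all overlapped. Leaving out knockout replicate 2 moved that median to −1.18, leaving out wild-type replicate 1 moved it to 0.47, and it was −0.57 with both left out. It was 0.17 without knockout replicate 1, 0.0075 without knockout replicate 3, −0.52 without wild-type replicate 2 and −0.50 without wild-type replicate 3.

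The inflammasome list holds partners of Aim2 and receptors of other inflammasomes, and 0 of its 15 genes passed the test in either direction. Pycard, the adaptor ASC that links AIM2 to caspase-1, had 67.3, 44.4 and 57.9 CPM in the knockout libraries, against 23.0, 38.5 and 31.2 CPM in the wild-type libraries. The groups did not overlap, and the log2 fold change was 0.87 (standard error 0.22, edgeR adjusted p = 0.338). Casp1 had 69.9, 73.5 and 89.4 CPM in the knockout libraries, against 49.0, 69.3 and 59.2 CPM in the wild-type libraries, also without overlap (0.39, adjusted p = 0.447). Among receptors of other inflammasomes, Nlrp1b had 0.98 (adjusted p = 0.345), without overlap, and Nlrp6 had 0.77 (adjusted p = 0.611), with overlap. Pycard, Casp1, Nlrp1b and Nlrp6 all had their lowest level in wild-type replicate 1, at 23.0, 49.0, 6.57 and 11.8 CPM. Their fold changes without that library are not given. Il18, a cytokine that caspase-1 matures, had 0.50 (adjusted p = 0.424), and its groups overlapped. Pycard, Nlrp1b, Il18 and Casp1 were named for the lowest p in the list, and Nlrp6 after its value was seen. Of the 15 genes, 9 had a log2 fold change above 0 and 6 below. Groups did not overlap for 3 genes higher in the knockout, beside 9.43% of all genes. They did not overlap for 1 lower gene, Casp8 (−0.10), beside 8.47% of all genes. Aim2 itself had −0.08. The list median was 0.04, and leaving out single libraries put it between −0.01 (knockout replicate 2) and 0.13 (wild-type replicate 2). No test was made of the difference between Aim2 and the other genes.

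**Figure D4:**
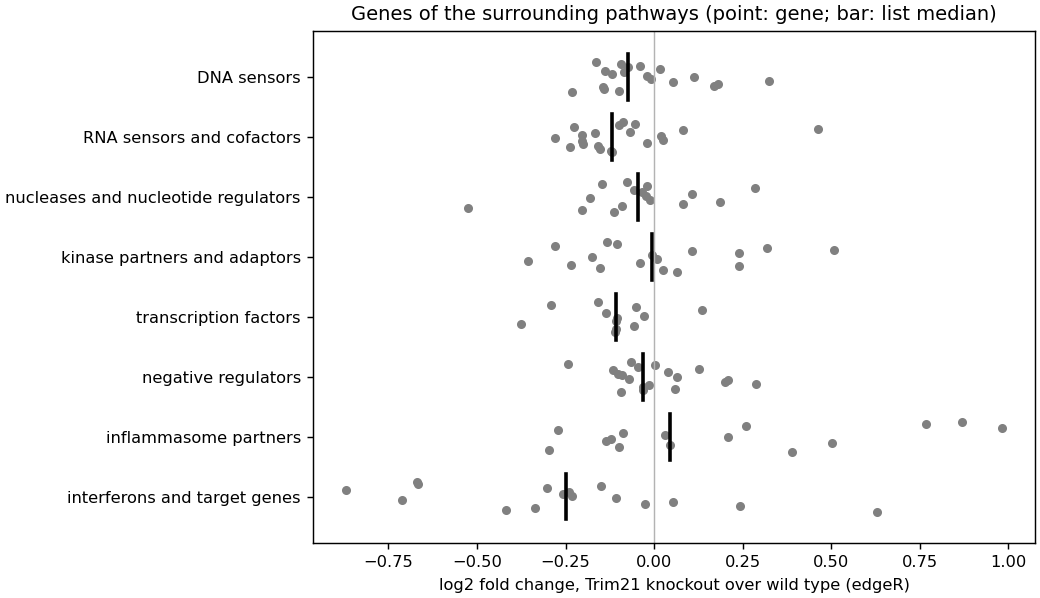
Log2 fold change of the knockout over the wild type for each tested gene of 8 pathway lists (points), with the list median (bar). Medians lie between −0.25 for interferon targets and 0.04 for inflammasome partners, whose 3 highest points are Nlrp1b, Pycard and Nlrp6; no point passed the test over all genes.

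Marker lists of the cells in a tumour sample were set beside these results. Epithelial markers were abundant in every library, and 3 of 12 were higher in the knockout without overlap. The summed levels of the 12 markers were 9335 to 9938 CPM in knockout tumours and 8107 to 9387 CPM in wild-type tumours. Every library thus held epithelial RNA, which alone does not verify the tissue label. Macrophage and monocyte markers had higher values in every knockout library for 6 of 10 genes, beside 9.43% of all genes, and their sum ran from 716 to 934 CPM in knockout tumours and from 641 to 708 CPM in wild-type tumours. Of the defining macrophage markers, Cd68 and Adgre1 did not overlap between the groups, and Csf1r did. Cd14 was the 1 gene of the list with a log2 fold change below 0 (−0.22). Smooth muscle markers were higher without overlap for 3 of 8 genes, with sums of 727 to 1243 CPM in knockout tumours and 196 to 697 CPM in wild-type tumours. Endothelial markers were higher without overlap for 3 of 8, with sums of 232 to 312 CPM in knockout tumours and 204 to 256 CPM in wild-type tumours. Fibroblast markers were so for 1 of 8, with sums of 1607 to 2321 CPM in knockout tumours and 1125 to 1716 CPM in wild-type tumours. Neutrophil and dendritic cell markers were so for 1 of 7 each and T and B cell markers for 0 of 7 each, and sums overlapped for all 4 lists. By edgeR, 0 marker genes passed. Macrophage and smooth muscle sums were thus higher in every knockout library than in any wild-type library. Each separation rests in large part on 1 abundant gene, Lyz2 for macrophages and Myh11 for smooth muscle. Lyz2 had 366 to 451 CPM in knockout tumours and 290 to 355 CPM in wild-type tumours. Myh11 had 208 to 329 CPM in knockout tumours and 41.6 to 173 CPM in wild-type tumours. The part of cell content in the results was not tested.

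**Figure D5:**
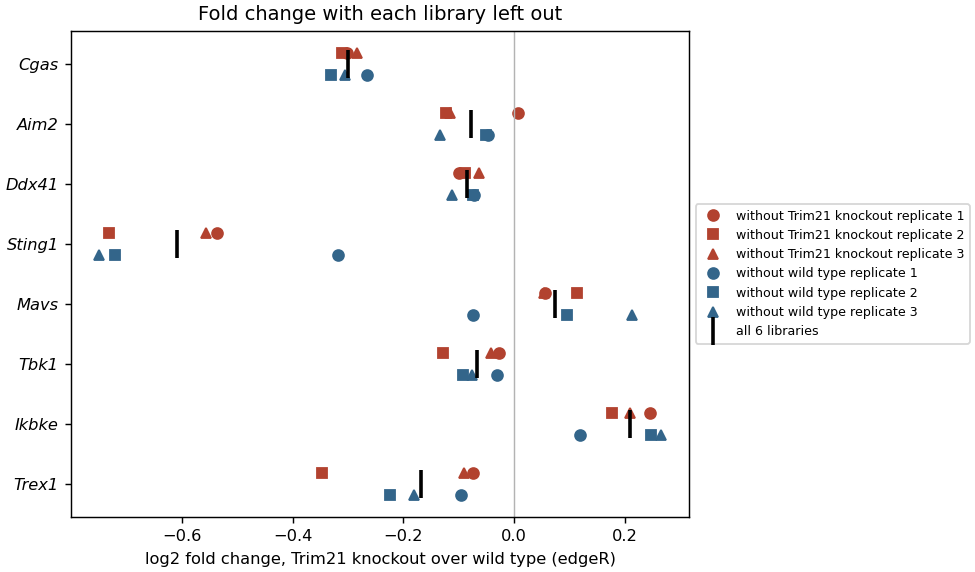
Log2 fold change of the knockout over the wild type for the 8 genes with all libraries (bar) and with each library left out (symbols, red for a knockout library and blue for a wild-type library). Sting1 moves most, to −0.32 without wild-type replicate 1, and Mavs and Aim2 cross 0.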

How the data were processed

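The 6 samples were grouped by genotype from their labels, 3 per group. The authors deposited whole-number read counts per gene symbol, 1 table per sample. Per the labels' protocols, RNA was extracted with Trizol, depleted of ribosomal RNA and prepared with a low-input kit. Per the submitters' processing notes, TopHat2, edgeR, limma and the mm10 build were used, with no version or role. The sources used here do not give the counter, annotation or strand setting.

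All 6 libraries entered one fit of edgeR 4.0.16 (R 4.3.3, quasi-likelihood test), with TMM scaling, filterByExpr, group as the only term and Benjamini-Hochberg adjustment over 16281 genes (threshold 0.05, two-sided). CPM came from the same scaling. Alternatives used DESeq2 1.42.0, limma 3.58.1 (voom), other scalings and filters, a replicate block and leaving out libraries. Named genes were the 8, Trim21, Atrip, up to 4 genes per list by p and the 2 closest profiles per member. Ifi204, Zbp1, Nlrp6, Ddx58, Ifih1, Irf3, Ifnb1, Ifnl2 and the Y-linked genes were added after their values were seen. 1 gene that the rule names is not reported here. Members, lists and rules were chosen after earlier results of these data were known. Positions and lengths came from GENCODE M21 (GRCm38, the assembly of mm10), in which Sting1 is named Tmem173, and promoters from RefSeq (GRCm38.p6). Depth was 17937821 to 29742757 counts, so a gene with 0 reads could still reach 0.101 to 0.165 CPM. Replicates within a group differed beyond sampling noise (chi-square per degree of freedom 22.0 to 109), so all were kept. No feature shared all 6 counts of a member.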

Additional observations from a re-analysis of the deposited data

How the results depend on the processing

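Of 120 fold changes of the 8 genes over 15 other settings, 117 kept their direction and none passed the threshold. The exceptions were Aim2, at 0.0076 without knockout replicate 1, and Mavs, at −0.074 without wild-type replicate 1 and −0.037 when that library and knockout replicate 2 were both left out. Leaving out single libraries put Aim2 between −0.13 and 0.0076, Mavs between −0.074 and 0.21, Sting1 between −0.75 and −0.32 and the Ikbke to Tbk1 log2 ratio between 0.15 and 0.35. The median of the kinase partner list, close to 0, moved to between −0.08 and 0.04. DESeq2 called 337 genes, 246 higher and 91 lower, none of them among the 8. The edgeR count of 0 was 0 to 1 when single libraries were left out. The 1 call was Eif2s3y, a Y-linked gene, without wild-type replicate 3 (log2 fold change 3.22, adjusted p = 0.0228). Other scalings and filters called 0 genes.

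Same-numbered replicates did not deviate together (r of −0.15, −0.17 and −0.07). With 3 libraries per group, centred within the group, these values cannot settle whether the numbers pair the samples. With the replicate number as a block, edgeR called 0 genes, Sting1 had −0.57 (unadjusted p = 0.0518), Cgas −0.30 (unadjusted p = 0.106), Ikbke 0.22, Tbk1 −0.07, Mavs 0.09, Trex1 −0.18, Aim2 −0.08 and Ddx41 −0.09. The Ikbke to Tbk1 ratio differed by 0.28 within numbers, higher in the knockout in 3 of 3 pairs (exact sign-flip p = 0.25, the smallest possible). Trex1, at 137 to 293 reads per library, had the fewest reads of the 8 genes and its interval is wide.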

Other observations

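Eif2s3y, a Y-linked translation factor gene, had 59.96, 64.2 and 66.6 CPM in the knockout libraries, against 7.95, 5.65 and 55.9 CPM in the wild-type libraries. Wild-type replicates 1 and 2 stood far below the other 4 libraries. Ddx3y, Kdm5d and Uty, also Y-linked, did not show this. Ddx3y had 91.8 to 129 CPM in knockout tumours and 92.7 to 111 CPM in wild-type tumours, and Kdm5d had 48.3 to 55.2 CPM in knockout tumours and 44.9 to 52.4 CPM in wild-type tumours. Uty had 36.1 to 49.6 CPM in knockout tumours and 38.9 to 56.9 CPM in wild-type tumours. Xist was at or below 0.724 CPM in knockout tumours and 3.97 CPM in wild-type tumours. These genes were looked up after Eif2s3y passed a test without wild-type replicate 3, and no comparison rests on them.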
